A study of Homo sapiens with 16 samples.

Results

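The 10 genes described here carry cells from G1 into S phase: the D-type cyclins CCND1, CCND2 and CCND3, the E-type cyclins CCNE1 and CCNE2, the kinases CDK4, CDK6 and CDK2, the retinoblastoma gene RB1 and the kinase inhibitor CDKN1B. They were chosen by name, as the rows of the deposited expression tables that carry these symbols, from 61906 genes in all. The choice was made with earlier results of these data known. The values come from established human lines, HT-1080, from a fibrosarcoma, and HEK-293T, embryonic kidney cells that carry large T antigen of SV40. Each line received 20 nM of an siRNA against HNRNPH1 (siHNRNPH1), an RNA-binding protein that takes part in splicing, or a negative control siRNA (siNegative), and RNA was taken 48 h later. There were 3 short-read RNA-seq libraries, from cultures the labels call biological replicates, in each of the 4 groups, and 1 pool of full-length cDNA (IsoSeq) per group. All groups were transfected, so no untreated cells were compared.

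D-type cyclins bind CDK4 and CDK6, and E-type cyclins bind CDK2. Together these kinases phosphorylate RB1 and its relatives, which then release E2F factors that switch on genes of DNA replication, CCNE1 and CCNE2 among them. CDKN1B, also called p27, binds and restrains CDK2 complexes. The large T antigen in HEK-293T binds RB1 and its relatives, so in that line the control of E2F by RB1 is known to be impaired.

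Levels are given as CPM, expected counts scaled to 1 M (mega) of all counts in the library. CPM is not corrected for gene length, so levels were compared for 1 gene across samples. Only the sums over markers and over D-type cyclins put genes side by side, and longer transcripts weigh more in them. The HEK-293T libraries held 107.7 to 121.0 M counts and the HT-1080 libraries 27.3 to 32.7 M. HNRNPH1 was at 1110.9 ± 8.76 CPM (SD, n = 3) in HEK-293T siNegative and 335 ± 87.7 in siHNRNPH1, and at 619 ± 14.5 and 230.3 ± 1.61 CPM in HT-1080. Summed over 6 markers of each line, HEK-293T markers reached 580 to 885 CPM in HEK-293T libraries and 122 to 148 in HT-1080, and HT-1080 markers 10.7 to 12.9 and 7226 to 8312 CPM. Among the HEK-293T markers, CDH2 did not separate the lines and made up most of the HT-1080 sum. It was at 92.4 ± 1.32 CPM in HEK-293T siNegative and 90.5 ± 6.84 in HT-1080 siNegative (SD, n = 3). Replicate 1 of HEK-293T siHNRNPH1 stood apart from the other libraries of its group. It also held the least HNRNPH1 of that group, 234.1 CPM, where the highest library held 394.3. Over 13591 genes its log2 CPM correlated with replicates 2 and 3 at a Pearson r of 0.938 and 0.932, against 0.999 between replicates 2 and 3. HEK-293T results are therefore given with and without that library. In HT-1080, siNegative replicate 2 departed less, with r of 0.995 and 0.996 (0.998 between replicates 1 and 3).

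**Figure D1:**
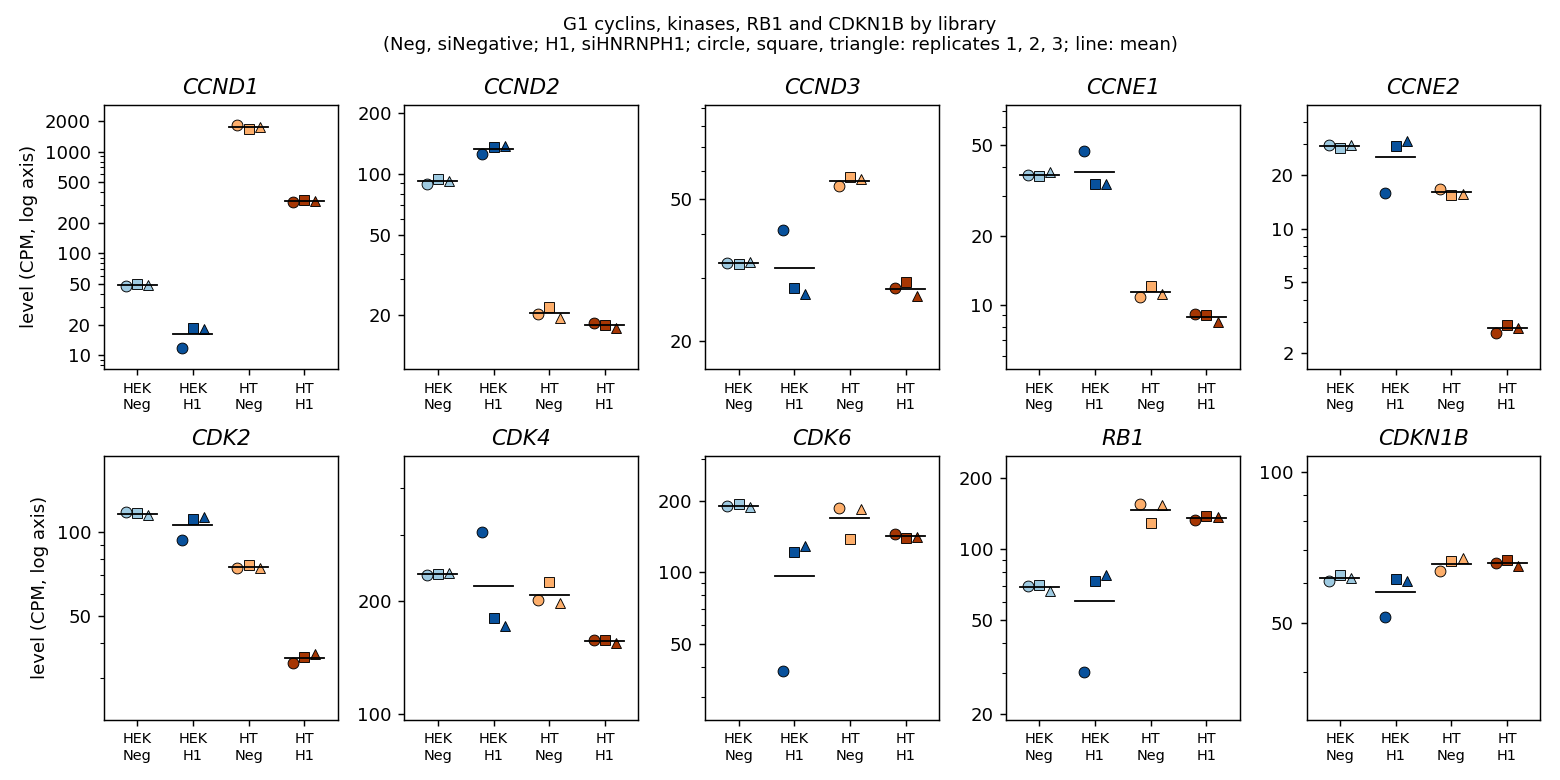
Level of each gene in the 12 short-read libraries, as CPM on a log axis, with 1 symbol per replicate (circle, square and triangle for 1, 2 and 3) and a line at the group mean. CCND1, CCND2, CCND3, CCNE1, CCNE2, CDK2 and CDK4 sit lower in all 3 HT-1080 siHNRNPH1 libraries than in the 3 siNegative ones. Replicate 1 of HEK-293T siHNRNPH1 lies away from replicates 2 and 3 for CDK4, CDK6, RB1 and CCNE2.

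Among the D-type cyclins, CCND1 fell with siHNRNPH1 in both lines. In HT-1080 it stood at 1809, 1675 and 1765 CPM in the siNegative libraries and at 321, 333 and 325 CPM with siHNRNPH1. The siHNRNPH1 mean was 18.6% of the siNegative mean, and the groups did not overlap. In RNA from whole cultures, less CCND1 RNA per cell and fewer cells that express it cannot be told apart, here as for the other genes. The log2 fold change was -2.49 (SE 0.05, edgeR BH-adjusted p = 2.71e-09). HEK-293T held far less: the siNegative libraries held 47.9, 49.7 and 48.4 CPM and the siHNRNPH1 libraries 11.7, 18.6 and 17.9. The lowest of these was replicate 1, and again no library of one group reached the other. The log2 fold change was -1.63 (SE 0.18, edgeR BH-adjusted p = 0.00917), and -1.47 without replicate 1 (SE 0.04, edgeR BH-adjusted p = 5.77e-18). Leaving out siNegative replicate 1, 2 or 3 instead gave -1.65, -1.62 and -1.64 and ended the call, with edgeR BH-adjusted p of 0.0720, 0.0749 and 0.0715.

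CCND2, the 1 D-type cyclin whose control level was higher in HEK-293T than in HT-1080, moved in opposite directions in the lines. HEK-293T had 89.2, 94.0 and 92.3 CPM with siNegative and 125.8, 136.0 and 138.0 with siHNRNPH1. It rose by a log2 fold change of 0.51 (SE 0.11, edgeR BH-adjusted p = 0.0379), and by 0.52 without siHNRNPH1 replicate 1 (edgeR BH-adjusted p = 3.32e-12). With any of the other 5 libraries left out, the log2 fold change stayed between 0.48 and 0.53 but the edgeR BH-adjusted p ranged from 0.103 to 0.220. HT-1080 had 20.1, 21.7 and 19.2 CPM with siNegative and 18.1, 17.8 and 17.2 with siHNRNPH1. There it fell by 0.27 on the log2 scale (SE 0.07, edgeR BH-adjusted p = 0.00597).

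CCND3 fell in HT-1080 to 49.8% of its control mean. Its libraries were at 54.4, 57.5 and 57.1 CPM with siNegative and 28.2, 29.3 and 26.7 with siHNRNPH1, a log2 fold change of -1.07 (SE 0.06, edgeR BH-adjusted p = 1.85e-07). In HEK-293T the siNegative values of 33.0, 32.9 and 33.2 CPM lay between those of siHNRNPH1 replicates 2 and 3 (28.2 and 27.0) and that of replicate 1 (40.9). The log2 fold change was -0.06 with all libraries (edgeR BH-adjusted p = 0.880) and -0.32 without replicate 1 (edgeR BH-adjusted p = 6.50e-07).

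Summed counts of the 3 D-type cyclins show how the members add up in each line. In HT-1080 the sum went from 1827 ± 65.9 to 372 ± 6.78 CPM (SD, n = 3), most of it CCND1. In HEK-293T it was 173.6 ± 3.21 CPM with siNegative and 181.4 ± 2.57 with siHNRNPH1, where the fall of CCND1 and the rise of CCND2 lay side by side. Summed counts weight longer transcripts more, and these sums were not tested.

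Of the E-type cyclins, CCNE2 fell in HT-1080 by more than any other member. It was at 16.8, 15.5 and 15.8 CPM in HT-1080 siNegative and at 2.60, 2.88 and 2.77 in siHNRNPH1, 17.1% of the control mean. Its log2 fold change of -2.61 (SE 0.09, edgeR BH-adjusted p = 1.22e-08) was the most negative of the 10 members in either line. In HEK-293T it was at 29.6, 28.4 and 29.8 CPM with siNegative, and at 16.0, 29.2 and 31.2 with siHNRNPH1. Only replicate 1 was low there, and the log2 fold change was -0.24 with it (edgeR BH-adjusted p = 0.577) and -0.01 without it (edgeR BH-adjusted p = 0.840). CCNE1 fell in HT-1080, from 10.8, 12.02 and 11.2 CPM to 9.14, 9.004 and 8.39 (log2 fold change -0.42, SE 0.08, edgeR BH-adjusted p = 0.00109). HEK-293T siNegative libraries held 36.7, 36.6 and 37.8 CPM of CCNE1 and siHNRNPH1 libraries 46.7, 33.7 and 33.6. With all libraries the log2 fold change was 0.02 (edgeR BH-adjusted p = 0.961), and without replicate 1 it was -0.20 (edgeR BH-adjusted p = 1.72e-04).

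Of the kinases, CDK2, the partner of the E-type cyclins, changed most in HT-1080. It went from 73.9, 75.9 and 74.1 CPM to 33.9, 35.6 and 36.5, a log2 fold change of -1.15 (SE 0.05, edgeR BH-adjusted p = 5.90e-08). HEK-293T held 117.3, 116.4 and 114.9 CPM with siNegative and 93.2, 111.1 and 113.0 with siHNRNPH1. The groups did not overlap there, yet the log2 fold change of -0.16 did not pass (edgeR BH-adjusted p = 0.420). Without replicate 1 it was -0.11 and passed (edgeR BH-adjusted p = 0.00368).

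CDK4 fell in HT-1080 from 201, 225 and 198 CPM to 157, 157 and 154 (log2 fold change -0.48, SE 0.06, edgeR BH-adjusted p = 4.70e-05). HEK-293T siNegative libraries held 234, 236 and 237 CPM, and the siHNRNPH1 libraries lay on either side, at 306 in replicate 1 and at 180 and 172 in replicates 2 and 3. The log2 fold change was -0.12 with all libraries (edgeR BH-adjusted p = 0.816) and -0.48 without replicate 1 (edgeR BH-adjusted p = 2.92e-12). CDK4 is shown with its promoter because, of the 6 members with an entry in the RefSeq promoter table (GRCh38.p14), it held most matches to the E-box letters CACGTG, which MYC and related factors are known to bind. The letters read the same on both strands and stood 216, 196 and 101 bases before the gene start, in capitals here with the bases around them, on the minus strand of chromosome 12.
CDK4 chr12:57752513-57752534: caagcggtCACGTGtgatagca
CDK4 chr12:57752493-57752514: caacagatCACGTGgctgccat
CDK4 chr12:57752398-57752419: gtggcggtCACGTGcccagaac
E-box letters occurred in 7.26% of the 35116 promoter windows of the same length, and among the members also in CDK6. The RB1 window lies at a start near the 3′ end of the gene, so the promoter of full-length RB1 was not searched. None of the windows searched for these 6 members held any of the E2F letters TTTCCCGC, TTTGGCGC, TTTCGCGC or TTTGCCGC on either strand, which occurred in 3.31% of all windows. A match in letters was not tested for binding.

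CDK6, the other partner of the D-type cyclins, was lower with siHNRNPH1 in HEK-293T but spread widely. The siNegative libraries held 190, 193 and 188 CPM and the siHNRNPH1 libraries 38.4, 121.6 and 128.4, all below the controls. With replicate 1 so far down, the log2 fold change of -1.03 had an SE of 0.42 and did not pass (edgeR BH-adjusted p = 0.190). Without that library it was -0.66 (SE 0.03, edgeR BH-adjusted p = 4.75e-14). HT-1080 siNegative libraries were at 187, 138 and 184 CPM and the siHNRNPH1 libraries at 145, 140 and 141, so siNegative replicate 2 lay below all treated libraries and the ranges overlapped. CDK6 fell there by 0.33 on the log2 scale (SE 0.10, edgeR BH-adjusted p = 0.0136). Without siNegative replicate 2 the change was -0.46 (edgeR BH-adjusted p = 2.96e-15), and without siNegative replicate 3 it was -0.27 and missed the threshold (edgeR BH-adjusted p = 0.0505).

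RB1, the substrate of these kinases, had small changes with siHNRNPH1 and passed the test in HT-1080 alone. There the siNegative libraries held 156, 130 and 154 CPM and the siHNRNPH1 libraries 133, 138 and 137. The log2 fold change of -0.18 passed (SE 0.07, edgeR BH-adjusted p = 0.0371). It grew to -0.26 without siNegative replicate 2 (edgeR BH-adjusted p = 1.58e-09) and lost its call when any of the other 5 libraries was left out, at -0.14 to -0.19 (edgeR BH-adjusted p of 0.0767 to 0.121). HEK-293T had 69.9, 70.8 and 66.8 CPM with siNegative and 30.3, 73.5 and 77.9 with siHNRNPH1. The low value was replicate 1, and the log2 fold change was -0.23 with it (edgeR BH-adjusted p = 0.701) and 0.07 without it (edgeR BH-adjusted p = 0.0928).

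CDKN1B did not pass the test in either line. In HT-1080 it was at 63.4, 66.4 and 67.3 CPM with siNegative and at 65.9, 66.7 and 65.1 with siHNRNPH1 (log2 fold change -0.06, SE 0.05, edgeR BH-adjusted p = 0.246). HEK-293T held 60.7, 62.3 and 61.6 CPM with siNegative and 51.4, 61.3 and 60.7 with siHNRNPH1 (log2 fold change -0.12, SE 0.11, edgeR BH-adjusted p = 0.548). Without replicate 1 the HEK-293T change was -0.07 (edgeR BH-adjusted p = 0.0802).

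**Figure D2:**
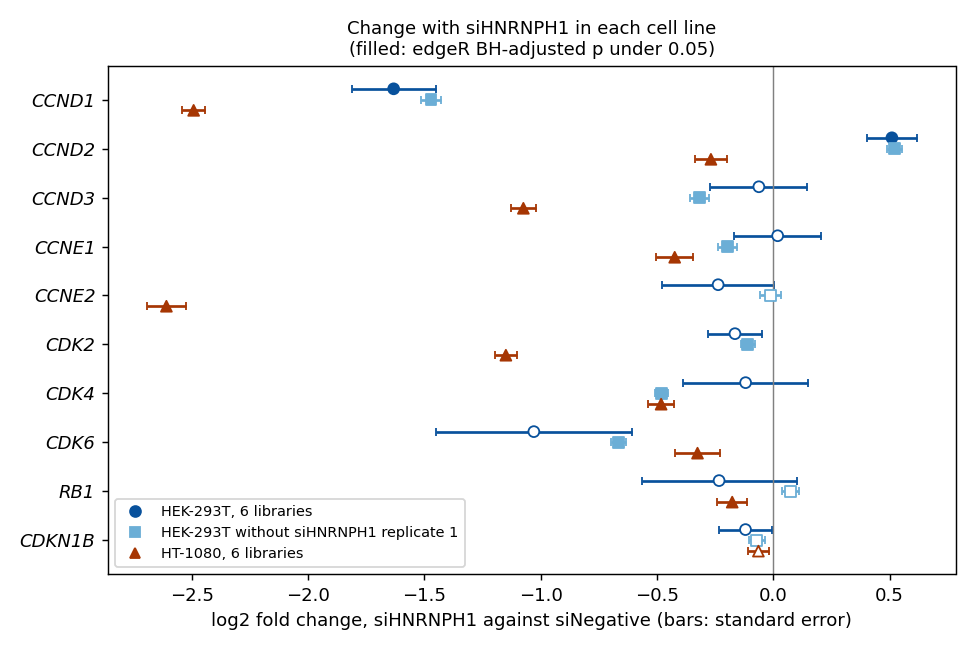
Log2 fold change of each gene with siHNRNPH1 against siNegative, with its standard error, in HEK-293T (circles, all 6 libraries; squares, without siHNRNPH1 replicate 1) and HT-1080 (triangles). Filled symbols passed edgeR's BH-adjusted p of 0.05: 9 of 10 in HT-1080, all below 0, and in HEK-293T 2 with all libraries and 7 without replicate 1.

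In total, 9 of the 10 members fell in HT-1080 and 0 rose, where 65.3% of all tested genes were called, 32.6% as lower. The median log2 fold change was -0.45 over the members and 0.01 over all 16145 genes. In HEK-293T, 1 member rose (CCND2) and 1 fell (CCND1), where 10.0% of genes were called, 5.12% as higher and 4.88% as lower. The medians there were -0.14 over the members and 0.02 over 19966 genes. Without siHNRNPH1 replicate 1, 1 member rose and 6 fell, where 61.8% of genes were called, 30.5% as higher and 31.3% as lower. The 7 called members are a share near that of all genes, and by direction more of them fell and fewer rose than over all genes. Leaving out any siNegative library of HEK-293T gave 0 called members, and leaving out siHNRNPH1 replicate 2 or 3 gave 1 (CCND1). All 10 members passed the filter on low counts in each line.

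The response to siHNRNPH1 differed between the lines for 5 of the 10 members, by the interaction of line and siRNA over the 12 libraries, where 19.0% of all genes were called. Each of the 5 changed more negatively in HT-1080, a direction in which 10.8% of genes were called (8.13% in the other). CCNE2 differed by -2.44 (SE 0.25, edgeR BH-adjusted p = 1.11e-04), and its partner CDK2 by -1.06 (SE 0.11, edgeR BH-adjusted p = 9.98e-05), both as HT-1080 minus HEK-293T log2 fold change. All 3 D-type cyclins were among them: CCND1 at -0.93 (SE 0.17), CCND2 at -0.85 (SE 0.12) and CCND3 at -1.09 (SE 0.24), with edgeR BH-adjusted p of 0.00361, 5.90e-04 and 0.00975. The differences of CCNE1 (-0.52, SE 0.22), CDK4 (-0.45, SE 0.31), CDK6 (0.64, SE 0.44), RB1 (-0.01, SE 0.34) and CDKN1B (-0.01, SE 0.11) did not pass, with edgeR BH-adjusted p of 0.136 to 1.00. Without HEK-293T siHNRNPH1 replicate 1, 7 members were called, all more negative in HT-1080, where 49.0% of genes were, 26.4% in that direction. CCNE1 (-0.28, edgeR BH-adjusted p = 0.0116) and RB1 (-0.30, edgeR BH-adjusted p = 0.00677) then joined the other 5.

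The lines also differed before any depletion. Between the siNegative groups, 8 of the 10 members were called, 4 as higher in HT-1080 and 4 as lower, where 86.6% of all genes were called (40.8% and 45.8%), so a called difference is the rule between these lines. CCND1 was 35.9 times as high in HT-1080 by mean CPM, and even after siHNRNPH1 it stood above the HEK-293T controls. The edgeR fit, which rescales libraries beyond their totals, gave a log2 difference of 5.42 (SE 0.06, edgeR BH-adjusted p = 9.56e-13). RB1 (log2 difference 1.34), CCND3 (1.02) and CDKN1B (0.35) were also higher in HT-1080. CCND2 (-1.92), CCNE1 (-1.45), CCNE2 (-0.61) and CDK2 (-0.38) were lower. CDK4 (0.07) and CDK6 (0.09) did not pass. Line, sequencing depth and separately deposited table cannot be told apart here. Scaling by library totals alone moved the median of all genes from -0.10 to -0.36. Under it CDK4 turned to -0.18 and passed (edgeR BH-adjusted p = 0.00954), and CDKN1B no longer passed at 0.10 (edgeR BH-adjusted p = 0.0573). In CPM, CDK4 and CDK6 were likewise lower in HT-1080, at 88.1% and 89.2% of the HEK-293T mean.

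Across the 4 groups each gene had its own order of mean CPM. CCND1 descended from HT-1080 siNegative through HT-1080 siHNRNPH1 and HEK-293T siNegative to HEK-293T siHNRNPH1, with no overlap between neighbours. CCND2 ran the other way, from HEK-293T siHNRNPH1 through HEK-293T siNegative and HT-1080 siNegative to HT-1080 siHNRNPH1, again with none. CDK2 descended from HEK-293T siNegative to HEK-293T siHNRNPH1, HT-1080 siNegative and HT-1080 siHNRNPH1 without overlap. For CCND3, CCNE1, CCNE2, CDK4, RB1 and CDKN1B the 2 HEK-293T groups overlapped, and for CDK6, RB1 and CDKN1B the 2 HT-1080 groups did. How often groups fail to overlap over all genes was not computed, so overlap of the members is a description.

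For the genes around the members, 32 other genes of the pathway were read from the same fits. This list was chosen with earlier results of these data known, so its counts and medians are a description. In HT-1080, 29 were tested, of which 24 fell, 2 rose and 3 did not pass, where 65.3% of all genes were called, 32.7% as higher and 32.6% as lower. The median log2 fold change was -0.92 over the 29 and 0.01 over all genes. Each change named here passed edgeR's test at a BH-adjusted p under 0.05 unless said otherwise. The largest falls were those of E2F2 and E2F1. E2F2, an activator, went from 7.44 ± 0.32 to 0.35 ± 0.04 CPM (SD, n = 3), on 9 to 13 counts per siHNRNPH1 library (log2 fold change -4.44, SE 0.15). E2F1, also an activator, went from 35.9 ± 2.71 to 6.03 ± 0.51 CPM (-2.64, SE 0.09). Of the 10 E2F and DP genes, 8 fell, TFDP2 rose (0.34) and TFDP1 did not pass.

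Of the 4 genes of CDK activation, 3 fell in HT-1080 and CDK7, the kinase that activates other CDKs, did not pass (-0.08, edgeR BH-adjusted p = 0.280). CDC25A, the phosphatase that removes inhibitory phosphates from CDK2, had a log2 fold change of -2.02 (SE 0.07). The 3 later cyclins and CDKs tested fell: CCNA2 by -1.92, CCNB1 by -1.58 and CDK1 by -1.67. Of the 6 ubiquitin ligase parts, 5 fell, among them SKP2 (-0.89) and CKS1B (-1.74), which together mark CDKN1B for degradation. The others that fell were CUL1, FBXW7 and FBXO4. Only AMBRA1, which marks D-type cyclins, rose (0.32). All 4 inhibitors tested fell, among them CDKN2D (-1.56) and CDKN1A (-0.32), the latter known as p21. RBL1, a relative of RB1, fell by 1.11 on the log2 scale, and RBL2 did not pass (0.00). CDKN2A, CDKN2B and CCNA1 had 0 counts in all 6 HT-1080 libraries and were not tested there. A count of 0 in a single library leaves an expected count of up to 3 possible at 95% confidence.

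In HEK-293T all 32 pathway genes were tested, and with all libraries 1 rose, 3 fell and 28 did not pass (median -0.25, against 0.02 over all genes). The share called, 4 of 32, lies near the 10.0% of all genes called, 5.12% as higher and 4.88% as lower. CDKN1A rose from 21.3 ± 0.34 to 47.2 ± 8.97 CPM (SD, n = 3; log2 fold change 1.13, SE 0.18, edgeR BH-adjusted p = 0.0214). The 3 that fell were E2F5 (-1.24), MNAT1 (-0.87), a subunit of the kinase that activates CDKs, and CDC25A (-0.50). These 4 calls were lost without siNegative replicate 2 or 3, where edgeR called 0 genes in all (3517 and 3486 at an unadjusted p under 0.05). Without siHNRNPH1 replicate 1, 4 rose, 20 fell and 8 did not pass, where 61.8% of all genes were called, 30.5% as higher and 31.3% as lower. CDKN1A was then at 0.92, E2F5 at -1.40, MNAT1 at -1.08 and CDC25A at -0.48, all 4 still called. The response differed between the lines for 15 of the 32, of which 14 were more negative in HT-1080, where 19.0% of all genes were called, 10.8% as more negative and 8.13% as more positive. The 32 include CDKN2A, CDKN2B and CCNA1, whose difference cannot be estimated because they had 0 counts in HT-1080. The largest differences were those of E2F2 (-4.21) and E2F1 (-2.70), and CDKN1A, higher in HEK-293T and lower in HT-1080, differed by -1.53. All of these passed edgeR's test at a BH-adjusted p under 0.05.

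**Figure D3:**
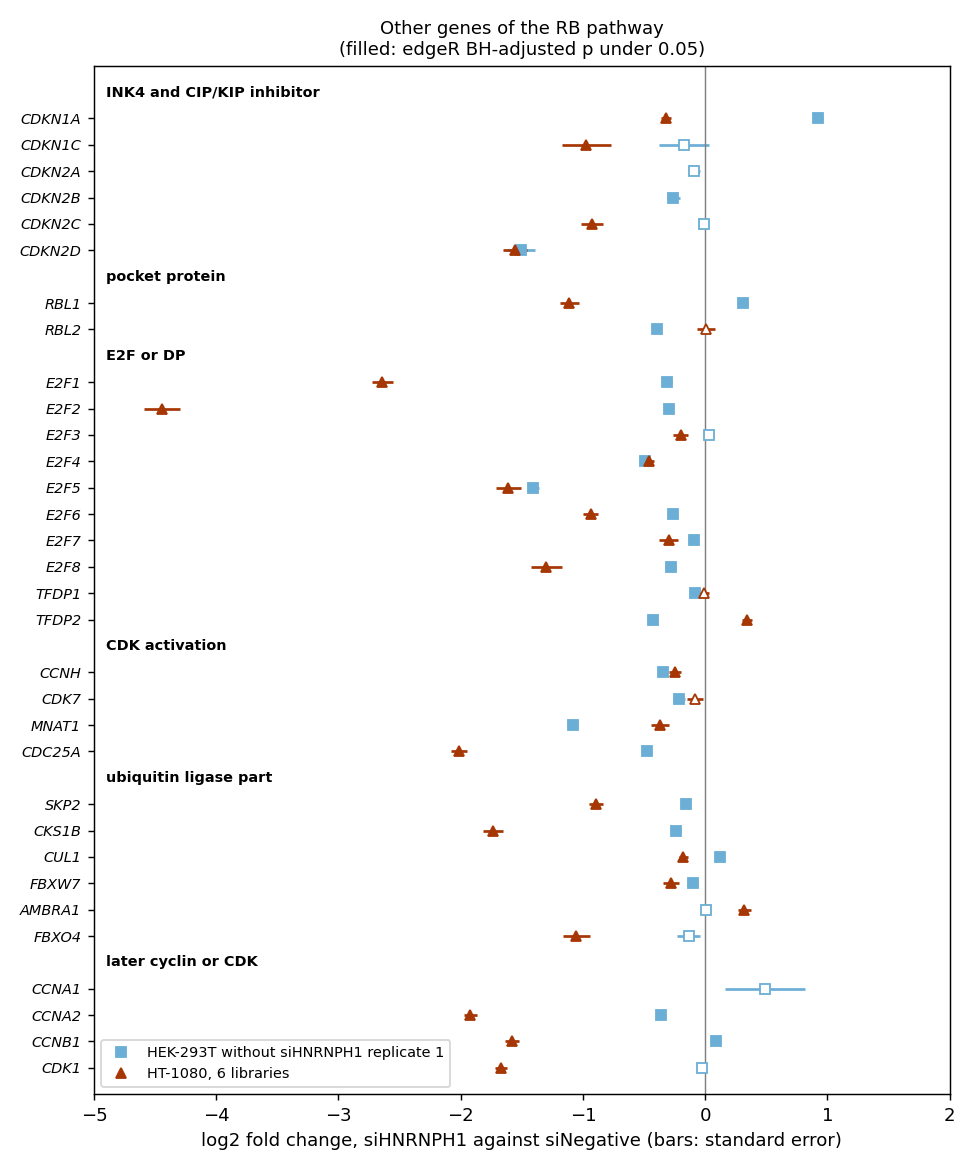
Log2 fold change of the 32 other pathway genes with siHNRNPH1 against siNegative, with standard errors, in HEK-293T without siHNRNPH1 replicate 1 (squares) and in HT-1080 (triangles), grouped by role. Filled symbols passed edgeR's BH-adjusted p of 0.05, and in HT-1080 24 of 29 lie below 0 and passed.

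Each member has 5 to 23 transcripts in the tables, and the share of the gene's counts that each held was compared within each line. An exact permutation test of 3 libraries against 3 cannot go below 0.1, so shares were read with limma's diffSplice test over all genes. In HEK-293T usage was called for 1 of 9 tested members, CDK4 (limma adjusted p = 5.79e-04), where 9.59% of genes were called. Its main transcript ENST00000257904.11 held 84.2, 82.8 and 83.8% with siNegative and 70.7, 77.3 and 79.7% with siHNRNPH1. A minor one, ENST00000547281.5, held 2.65% ± 0.76 and 0.57% ± 0.70 (SD, n = 3) with a limma adjusted p of its own of 2.36e-04. It was picked for mention after its values were seen. Keeping only transcripts of at least 5% of their gene, the CDK4 call was lost (limma adjusted p = 0.156). Without siHNRNPH1 replicate 1, usage was called for 7 members: CCND1, CCND2, CCND3, CCNE1, CDK2, CDK4 and CDK6. In that fit 41.6% of all genes were called.

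CCNE1 had 3 transcripts whose shares did not overlap between the HEK-293T groups. As parts of the same total these shares are not separate observations. How often shares fail to overlap over all transcripts was not computed. ENST00000262643.8 held 30.3, 32.5 and 29.2% with siNegative and 52.6, 38.4 and 42.3% with siHNRNPH1, while ENST00000444983.6 went from 46.6, 46.1 and 49.0% to 18.5, 40.9 and 37.0%. The third, ENST00000357943.9, held 17.4, 15.9 and 12.98% with siNegative and 8.76, 12.89 and 11.3% with siHNRNPH1, so its nearest libraries all but met. The exact permutation p was 0.1 for each. Usage of CCNE1 did not pass with all libraries (limma adjusted p = 0.287) and passed without siHNRNPH1 replicate 1 (limma adjusted p = 0.00828). CDKN1B, whose gene level did not pass, had ENST00000614874.2 at 13.4, 12.1 and 13.7% with siNegative and 6.61, 9.89 and 10.1% with siHNRNPH1 (exact permutation p = 0.1), and its usage did not pass with or without replicate 1 (limma adjusted p = 0.378 and 0.0540). CCND3 held 84.5% ± 1.66 and 74.3% ± 2.43 of its counts in ENST00000372991.9 (SD, n = 3; exact permutation p = 0.1), with a limma adjusted p of 0.578 with replicate 1 and 0.0198 without it.

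CDK6 was split between 2 transcripts whose shares varied widely among replicates. ENST00000424848.3 held 53.2, 10.6 and 70.8% in HT-1080 siNegative and 71.5, 74.6 and 57.3% in siHNRNPH1, so the groups overlapped. The library with 10.6% was siNegative replicate 2, the same that had the low CDK6 level. In HEK-293T it held 18.2, 23.9 and 16.6% with siNegative and 6.44, 38.5 and 40.7% with siHNRNPH1.

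HT-1080 usage was called for 2 of 9 tested members, CCND1 and CDK2, where 21.2% of genes were called. CCND1 moved by little, with ENST00000227507.3 at 99.35% ± 0.13 and 98.9% ± 0.17 (SD, n = 3; limma adjusted p = 0.00447 for the gene). Without siNegative replicate 2 the CCND1 call was lost (limma adjusted p = 0.976), as it was without siHNRNPH1 replicate 2 (limma adjusted p = 0.0533). For CDK2 the minor transcript ENST00000556656.5, also picked after its values were seen, went from 0.818, 0.640 and 0.573% to 2.39, 1.99 and 2.07% (limma adjusted p = 0.00379 for the gene). Leaving out siNegative replicate 1 or 3, or siHNRNPH1 replicate 1 or 3, ended the CDK2 call (limma adjusted p of 0.0630 to 0.0845). In HEK-293T the same transcript was at 1.67, 1.66 and 1.70% with siNegative and 2.48, 4.39 and 4.40% with siHNRNPH1. The main CDK2 transcript ENST00000266970.9 held 76.6% ± 0.87 and 74.3% ± 0.59 in HT-1080 (SD, n = 3).

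**Figure D4:**
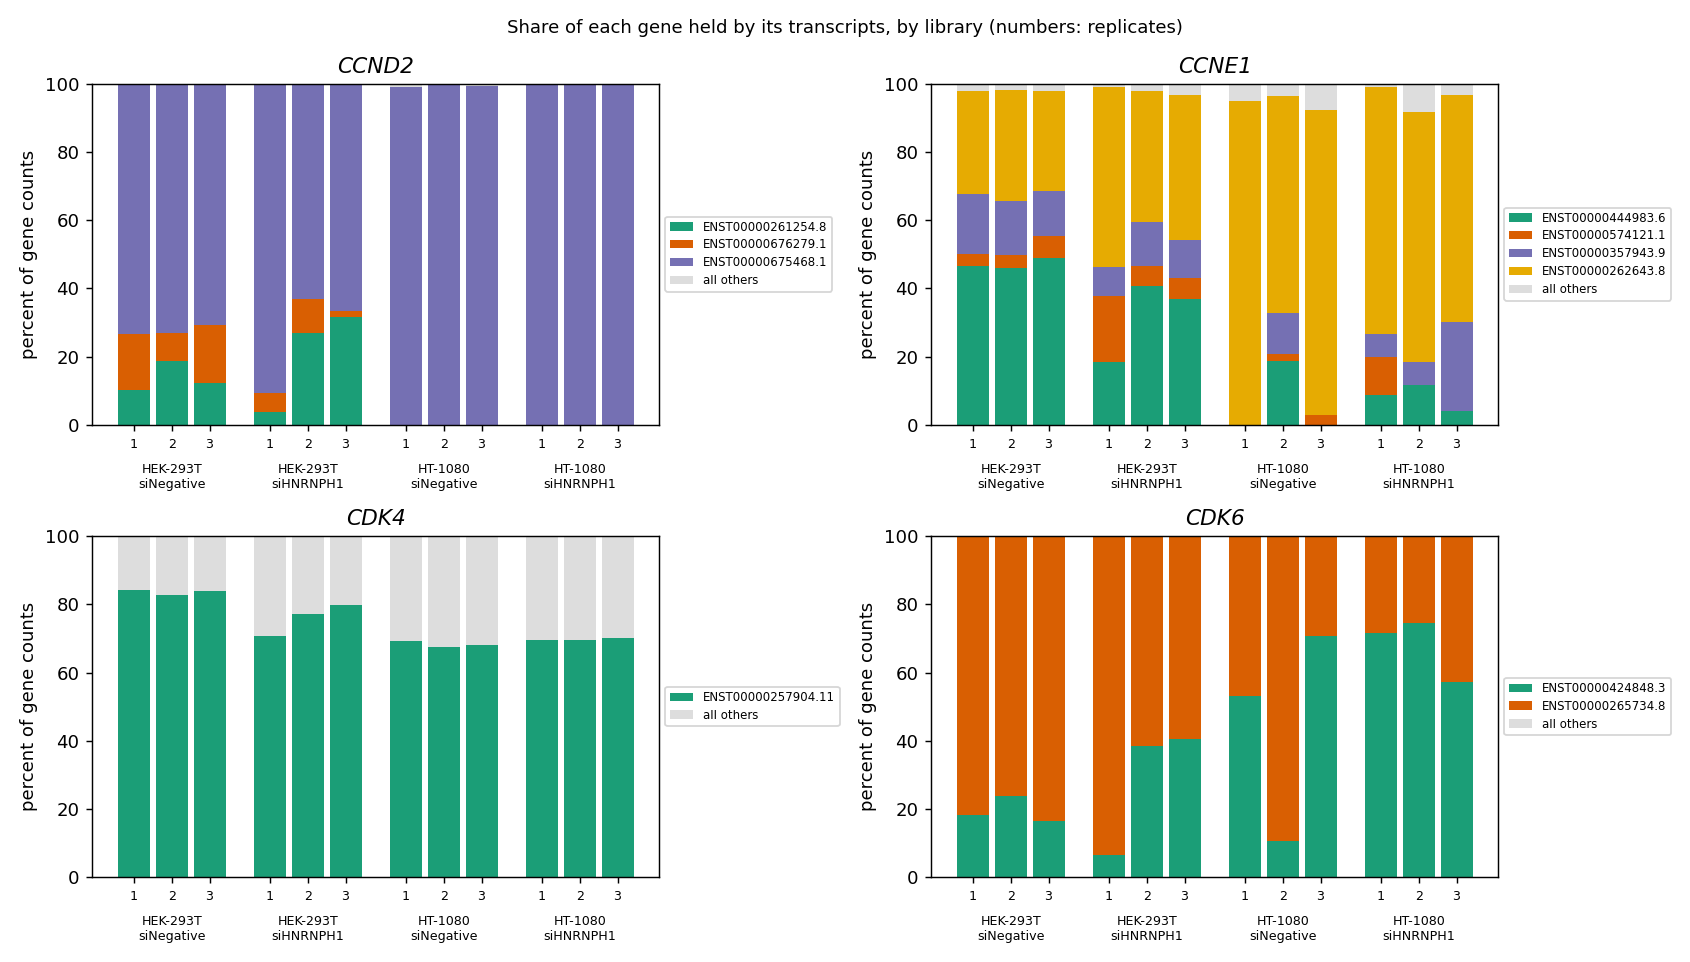
Percent of each gene's counts held by its transcripts in the 12 libraries for CCND2, CCNE1, CDK4 and CDK6, with transcripts under 10% in every group mean pooled in grey. ENST00000262643.8 of CCNE1 held 38.4 to 52.6% in the HEK-293T siHNRNPH1 libraries and 29.2 to 32.5% in siNegative, and the CDK6 shares of HT-1080 siNegative ranged from 10.6 to 70.8%.

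At transcript level, 1 of 56 tested member transcripts was called in HEK-293T, the main CCND1 transcript (log2 fold change -1.61, edgeR BH-adjusted p = 0.0474), where 0.248% of transcripts were called, 0.150% as lower. Its call was lost when any library other than siHNRNPH1 replicate 1 was left out, at -1.59 to -1.69 (edgeR BH-adjusted p of 0.161 to 0.342), and held without that replicate (edgeR BH-adjusted p = 2.90e-04). Without that replicate, 58 member transcripts were tested in HEK-293T, and 4 were called as higher and 8 as lower. Among them were the main transcripts of CCND1, CCND2, CCND3, CDK2, CDK4 and CDK6. The share of all transcripts called in that fit is not given here, so these counts are a description. In HT-1080, 10 of 44 were called, all lower, where 16.1% were, 8.18% as lower. CCND1 accounted for 4 of these, CDK2 and CDK4 for 2 each, and CCND3 and CCNE2 for 1 each. The called CCNE2 transcript was its main one, ENST00000308108.9, which held 90.7% ± 4.51 of the gene with siNegative and 81.1% ± 18.5 with siHNRNPH1 (SD, n = 3).

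The IsoSeq pools give transcript models without counts, so a model says that a structure was seen and nothing of its level. Members had 289 models in the 4 pools, of 299816 in all. CCND1 had 4 in each HEK-293T pool, 36 in HT-1080 siNegative and 14 in HT-1080 siHNRNPH1. All pools held a 5-exon CCND1 model of 4237 exonic bases at chr11:69641156-69654473 (GRCh38.p13, plus strand), and 25 of 36 and 11 of 14 HT-1080 models ended within 10 bases of its last base. A shorter 3′ end at base 69653953 occurred in 1 model of each HEK-293T pool and in 5 and 2 models of the HT-1080 pools. In HT-1080 siNegative, 1 model stopped inside the last intron (69648143 to 69651117), as the known form cyclin D1b does, against 33 that spliced it. With 1 pool per group and unequal numbers of models, this difference has no replicate check.

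CDK2 models differed at an exon of 102 bases, chr12:55969475-55969576. It was included in 5 models and skipped in 2 in HEK-293T siNegative, in 8 and 5 in HEK-293T siHNRNPH1, in 7 and 2 in HT-1080 siNegative, and in 5 and 2 in HT-1080 siHNRNPH1, so both forms occurred in every pool. CDK6 models began near base 92836573 or, with 1 exon fewer, near base 92834004 of chromosome 7 (minus strand). RB1 had 14 to 22 models per pool and CDKN1B 7 to 12. CCNE2 had 6 and 12 models in the HEK-293T pools and 1 in each HT-1080 pool. No model was listed for CDK4 in HEK-293T siNegative or for CDK6 in HT-1080 siHNRNPH1, although the short-read libraries of those groups held 234 to 237 CPM and 140 to 145 CPM.

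For each member, the most similar other gene was sought by Pearson r of log2(CPM + 1) over the 12 libraries, centred within each line, among the 12173 genes whose mean count reached 50 in each line. CCND1 paired with PTPN1 (0.999), CCND2 with RNF34 (0.985) and CCND3 with MYBL2, a known E2F target (0.997). CCNE1 paired with RAB5IF (0.987), CCNE2 with SQLE, an enzyme of sterol synthesis (0.999), and CDK2 with CYB5B (0.997). CDK4 was closest to PHB2 (0.997), CDK6 to PABIR2 (0.997), RB1 to the RNA helicase DDX6 (0.998) and CDKN1B to VTI1A (0.971). These values are a description: the libraries share their siRNA groups, and HEK-293T siHNRNPH1 replicate 1 enters each of them.

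Some loci overlap other genes, and strandedness of the libraries is not given in the sources used here. By RefSeq, CCND1, CCNE1, CDK2 and CDKN1B overlap no other gene. CCND2 overlaps its antisense gene CCND2-AS1, and CCND3 overlaps LOC105375059 and RNU6-761P. Among other genes, CDK6 overlaps CDK6-AS1, CDK4 overlaps TSPAN31, RB1 overlaps LPAR6, and CCNE2 overlaps INTS8 and NDUFAF6. Reads of these neighbours may be counted with the members.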

How the data were processed

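Short-read RNA-seq was deposited by the authors in units of expected counts per transcript from RSEM, in 1 table per line, with GRCh38.p13 as genome build per the submitters' processing notes; RSEM's version and the strandedness are not given in the sources used here. The values are estimates that share ambiguous reads between transcripts, and they carry no length or depth scaling. IsoSeq files deposited by the authors list exon positions of transcript models, without counts; models with at least 50% of their span at a member locus were assigned to it.

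These values were added up over each gene's transcripts, rounded to whole numbers, filtered with filterByExpr, scaled by TMM and tested with edgeR 4.0.16 (robust quasi-likelihood, two-sided) over all genes of each line. The line difference (interaction, 12 libraries) and the siNegative lines (6 libraries) were fitted in the same way. Transcript usage was tested with limma 3.58.1 (voom, diffSplice). Adjusted p-values are Benjamini-Hochberg adjusted over all features of a fit, with a threshold of 0.05. All 10 symbols matched the reference gene names. Shares were worked out for transcripts holding at least 10% of a gene in any group mean and for a few minor ones. Not all of these are named. The gene most like each member was the one with the highest r. The members, the pathway list and the markers were chosen with earlier results of these data known. Alternatives included DESeq2 1.42.0, other scalings, no low-count filter, a replicate block and leaving out each library. The tests were run on simulated data with known changes first. Those data held no library that stands apart, so they say nothing of how the tests behave with HEK-293T siHNRNPH1 replicate 1. Depth, 27.3 to 121.0 M counts per library, limits the precision of low genes such as E2F2 in HT-1080.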

Additional observations from a re-analysis of the deposited data

Results flagged for a closer look

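The response to siHNRNPH1 differed between the lines, by a test of the interaction itself, for 5 members. CCND1 fell in both lines and by more in HT-1080, with an HT-1080 minus HEK-293T log2 fold change of -0.93. CCND2 rose in HEK-293T and fell in HT-1080, a difference of -0.85. CCND3 differed by -1.09, CCNE2 by -2.44 and CDK2 by -1.06, each falling in HT-1080 and not passing the test with all libraries in HEK-293T. In none of the alternatives run for the interaction did any of these 5 lose its call in edgeR or DESeq2 at a BH-adjusted p of 0.05. HNRNPH1 itself fell in both lines, and its own difference between the lines did not pass (0.20, SE 0.19, edgeR BH-adjusted p = 0.506).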

How the results depend on the processing

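HEK-293T counts of calls depended on the libraries used, HT-1080 counts much less. In HEK-293T, 1997 genes and 2 members were called. Without the low-count filter these became 1302 and 1, with DESeq2 3982 genes, and with a spread shared over the 12 libraries 4550 genes. Leaving out 1 library gave 0 to 12557 genes and 0 to 7 members; the highest came without siHNRNPH1 replicate 1, and where edgeR called 0 genes, without siNegative replicate 2 or 3, 3517 and 3486 had an unadjusted p under 0.05. HEK-293T transcripts went from 222 to 1045 when only those of at least 5% of their gene were kept, and ranged from 0 to 15382 without 1 library; genes with changed usage went from 1249 to between 361 and 5576. HT-1080 had 10538 genes and 9 members, and 7 to 9 members without 1 library, while the shared spread gave 6237 genes and 5 members (CCNE1, CDK4, CDK6 and RB1 lost) and added CDK6 in HEK-293T (edgeR BH-adjusted p = 0.0477). HT-1080 transcripts numbered 10398, and 6038 to 9622 without 1 library. With library totals alone the HT-1080 RB1 change of -0.11 lost its call (edgeR BH-adjusted p = 0.190). The line difference called 4034 genes, and 2772 to 9535 without 1 library, with 5 to 7 members. The control lines differed in 17126 genes (15610 to 18004 without 1 library). CCNE1 in HEK-293T ranged from -0.20 (without siHNRNPH1 replicate 1) to 0.11 without 1 library, and CDK4 between control lines turned to -0.18 with library totals alone. The causes were not tested.

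With replicate number as a replicate block, HEK-293T called 0 genes (4169 at an unadjusted p under 0.05; DESeq2 without the block 3982), 0 members and 0 transcripts, HT-1080 4886 transcripts in place of 10398, and the line difference 2535 genes with the same 5 members. CCND1 in HEK-293T then had an edgeR BH-adjusted p of 0.0665, CCND2 of 0.175, and CDK4 usage a limma adjusted p of 0.192. Whether the numbers pair the libraries cannot be decided from 3 libraries per group. Deviations of same-numbered libraries correlated at 0.09, 0.10 and 0.02 in HEK-293T and at 0.00, 0.09 and 0.03 in HT-1080. In HEK-293T each siNegative library correlated best with its own number. There siHNRNPH1 replicate 3 did not, at 0.06 with siNegative replicate 2 and 0.02 with replicate 3. In HT-1080, siNegative replicates 1 and 3 correlated best with a library of another number.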
